A study of Mus musculus with 12 samples.

Results

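The trophectoderm is the outer epithelium of the blastocyst, which implants and builds the fetal part of the placenta, and its stem cells can be kept in culture as trophoblast stem (TS) cells. Its identity is set by a small network of transcription factors that acts downstream of the Hippo pathway, in which TEAD4 works with the co-activator YAP. Mouse embryonic stem (ES) cells do not normally take this path, and those that lose OCT4 are known to turn to it, since OCT4 holds back the trophectoderm regulators. The 9 genes described here were the caudal-type homeobox gene Cdx2, the T-box gene Eomes, the GATA factor genes Gata2 and Gata3, the ETS gene Elf5, Tead4, the basic helix-loop-helix gene Hand1, and Krt8 and Krt18, which encode the keratin pair of simple epithelia. They were grouped by their known roles. For each gene, every merged ATAC-seq region that overlapped the gene body (GENCODE M21, GRCm38/mm10) or the 50 kb on either side was taken, which gave 168 regions of 170548.

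ATAC-seq uses a transposase to insert adapters where chromatin is open. The data came from 12 libraries in 6 groups of 2 replicates, all of mouse ES cells grown with serum, LIF and the inhibitors CHIR99021 and PD184352. ZHBTc4 cells lack functional Pou5f1 alleles and express OCT4 from a transgene under a Tet-Off promoter, so that doxycycline (dox) shuts it off; 2TS22C cells carry the same design for Sox2. ZHBTc4 cells were left without dox (OCT4 ON) or given 1 µg/ml of it for 24 hr (OCT4 OFF), and 2TS22C cells were likewise SOX2 ON or, with the same dose, SOX2 OFF for 26 hr and for 40 hr. Each line is 1 engineered line, so a feature shared by its libraries may belong to that line. The deposited list merges the peaks of both lines with and without dox into 1 set of intervals, with no height and no value per library. A region listed below was therefore open in at least 1 of the merged peak sets, and the list does not tell in which line, with or without dox, or how strongly. The response of these genes to OCT4 loss is thus background and not something the list shows, no comparison of dox with no dox could be made, and the depth of the libraries is unknown.

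All 9 genes had a merged region within 1 kb of an annotated transcription start site (TSS). So did 74.7% of the 21938 protein-coding genes, so the presence of a region at the start does not set the 9 genes apart. The same holds for a region that overlaps any annotated TSS (9 of 9 members, 68.9% of all genes) and for a region anywhere in the gene body or the 50 kb around it (9 of 9, 96.8%). With a stricter rule chosen after the values were seen, that the region cover the first base of the reference transcript, 7 of 9 members and 63.2% of all genes had one. The reference transcript is the complete protein-coding transcript with the best APPRIS rank, and the longest where ranks tie. Eomes and Gata2 were the members without such a region.

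The starts of the transcription factor genes differed in shape. Cdx2 (ENSMUSG00000029646.3, minus strand, chr5:147300805-147307270) had a single region of 1772 bp, chr5:147305659-147307430, that ran from 160 bp upstream of the TSS through exon 1 into intron 1. It was the widest of the 168 regions and at the percentile 92.2 of the widest start regions of the protein-coding genes that have one. A second region of 998 bp lay further inside intron 1, with its center 2.58 kb from the TSS. Eomes (ENSMUSG00000032446.14, plus strand, chr9:118478212-118486132) was the reverse case, with a gap at its start. A region of 416 bp ended 206 bp before the TSS of the reference transcript Eomes-201, a region of 1379 bp began 136 bp after it, and the 341 bp between them held the TSS of Eomes-202 as well. The TSS of Eomes that a region did cover belongs to Eomes-203, whose 5′ end the annotation gives as incomplete.

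The GATA factor genes each had regions at or near more than 1 annotated start. At Gata2 (ENSMUSG00000015053.14, plus strand, chr6:88193891-88207032) a region of 650 bp began 13 bp downstream of the first TSS, that of Gata2-202, and a region of 408 bp began 185 bp downstream of the second, shared by Gata2-201 and Gata2-203. Neither covered its TSS. A pair of regions, 489 and 345 bp wide, followed in intron 4 and across exon 5, and the second covered the start of the retained-intron transcript Gata2-204. At Gata3 (ENSMUSG00000015619.10, minus strand, chr2:9857078-9890034) a region of 473 bp covered the TSS of the reference transcript Gata3-201, and a region of 1072 bp covered the starts of Gata3-202 and Gata3-203, which lie 11.4 kb further upstream. The center of the 1072 bp region lies 13 bp from a TSS of another protein-coding gene, 9230102O04Rik. That region can therefore not be assigned to Gata3 alone. Gata3 had 5 regions within 1 kb of one of its TSSs, and 6 of the 9 members had at least 2 such regions (27.7% of all protein-coding genes). These 6 were Eomes (2), Gata2 (4), Gata3 (5), Elf5 (3), Hand1 (3) and Krt8 (2), and a gene with more annotated starts can collect more of them: Cdx2, Krt8 and Krt18 have 1 start and Elf5 has 7.

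Elf5, an ETS factor that reinforces the TS cell network, had the least CpG-rich start of the 9. Within 500 bp of the 5′ end of the gene (ENSMUSG00000027186.14, plus strand, chr2:103411688-103450989) the ratio of observed to expected CpG was 0.193. When all protein-coding genes were ranked by this ratio into 4 groups of equal size, 26.5% of the lowest group, to which Elf5 belongs, had a region within 1 kb of a TSS, against 73.6%, 98.9% and 99.7% of the groups above. A region over the TSS of the reference transcript was found at 10.1% of the lowest group. Elf5, whose ratio lay near the upper bound of that group (0.218), had such a region, of 534 bp, over its first TSS. A region of 486 bp lay over the start of Elf5-203 in intron 1, and the starts of Elf5-201 and Elf5-207, which lie upstream of it, were 501 and 437 bp away from it. Gata3, Hand1, Krt8 and Krt18 fell into the second group and Cdx2, Eomes, Gata2 and Tead4 into the third.

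Tead4 (ENSMUSG00000030353.15, minus strand, chr6:128224288-128300823), the DNA-binding partner of YAP, had 1 region of 1200 bp over the starts of 4 of its transcripts, Tead4-201, Tead4-202, Tead4-204 and Tead4-205, and none near that of Tead4-203. Hand1 (ENSMUSG00000037335.13, minus strand, chr11:57828705-57832818), needed for trophoblast giant cells, had 3 separate regions around its start. The middle one, 280 bp wide, covered the TSS of the reference transcript, one of 916 bp covered the start of Hand1-201 and part of exon 2, and one of 428 bp was centered 0.972 kb upstream. Krt8 (ENSMUSG00000049382.10, minus strand, chr15:101996698-102004482) and Krt18 (ENSMUSG00000023043.7, plus strand, chr15:102028180-102032027) had regions of 617 and 939 bp over their single TSSs, and Krt8 a further one of 849 bp in intron 1.

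**Figure D1:**
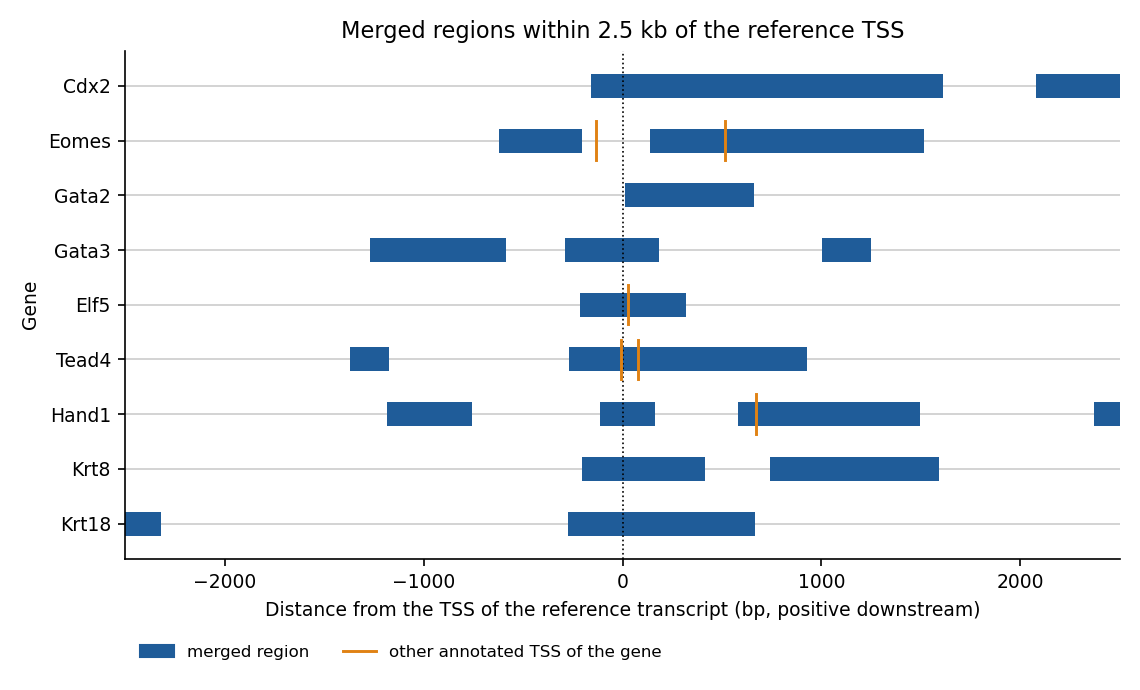
Merged regions (blue bars, to scale) within 2.5 kb of the TSS of the reference transcript of each gene; the x axis is the distance in bp, positive in the direction of transcription, and orange marks are other annotated TSSs of the same gene. The dotted line at 0 falls inside a bar for 7 of the 9 genes, in a gap of 341 bp for Eomes and 13 bp before the bar for Gata2.

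Sequence upstream of the starts shows how far the members differ in CpG content. The 250 bp before the first TSS of Gata2, the member with the highest CpG ratio (0.767), and of Elf5, the member with the lowest, are given with each CpG in capitals, on the plus strand of GRCm38.p6 as in RefSeq. The Gata2 stretch, chr6:88193641-88193890, holds 22 CpG and the Elf5 stretch, chr2:103411438-103411687, holds 2.
Gata2 upstream: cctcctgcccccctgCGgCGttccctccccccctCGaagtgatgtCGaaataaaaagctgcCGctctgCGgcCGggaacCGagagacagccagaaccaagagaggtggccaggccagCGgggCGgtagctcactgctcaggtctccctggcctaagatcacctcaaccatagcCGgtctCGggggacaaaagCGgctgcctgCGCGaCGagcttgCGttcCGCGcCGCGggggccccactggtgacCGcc
Elf5 upstream: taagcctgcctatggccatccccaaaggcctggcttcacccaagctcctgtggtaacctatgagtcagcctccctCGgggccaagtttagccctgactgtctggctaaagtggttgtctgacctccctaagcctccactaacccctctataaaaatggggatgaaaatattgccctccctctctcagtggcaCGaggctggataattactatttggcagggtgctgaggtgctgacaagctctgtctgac

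The windows around the 9 genes held between 15 and 31 regions. Gata3 (29 regions) had 21.8 regions per 100 kb, the highest density of the members and higher than that of 96.3% of protein-coding genes. Elf5 (15 regions) had the lowest, 10.8 per 100 kb, which is at percentile 52.9. Between them lay Gata2 with 14.1 regions per 100 kb, Eomes with 15.8, Cdx2 with 16.0, Tead4 with 17.6, Krt8 with 17.6, Hand1 with 19.2 and Krt18 with 19.3. The median over the 9 genes was 17.6 per 100 kb (percentile 85.3), against 10.2 over all protein-coding genes, and each member lay above that median. Counting only regions whose center lies more than 1 kb from any TSS, called distal here, the medians were 14.8 and 6.89 per 100 kb. The Krt8 and Krt18 windows overlap and share 16 regions, so their values are not separate measurements, and the 9 windows sum to 184 regions of which 168 are distinct.

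Of the 168 regions, 127 (75.6%, 95% Wilson interval 68.6 to 81.5%) were distal and 41 were promoter-proximal. Over all merged regions the distal share was 82.7%. Windows drawn around genes hold at least 1 start each, so this share is not independent of how the regions were chosen. The distal regions were centered in intergenic sequence (64), in introns (54) and in exons (9). Intervals of this kind cover counting over regions, which are not replicates of a condition.

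A 50 kb flank reaches other genes, and 112 of the 168 regions had a member's TSS as the nearest protein-coding one. The loci differed in this. At Tead4 22 of 31 regions, at Gata3 20 of 29 and at Elf5 14 of 15 were nearest to the member itself, but at Cdx2 only 5 of 17 and at Krt18 6 of 20. The Cdx2 window contains Urad and Pdx1, the latter a homeobox gene of the pancreas that belongs to the same ParaHox cluster, and part of Flt3. The Krt18 window contains Krt8 and part of Eif4b, which encodes a translation initiation factor.

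**Figure D2:**
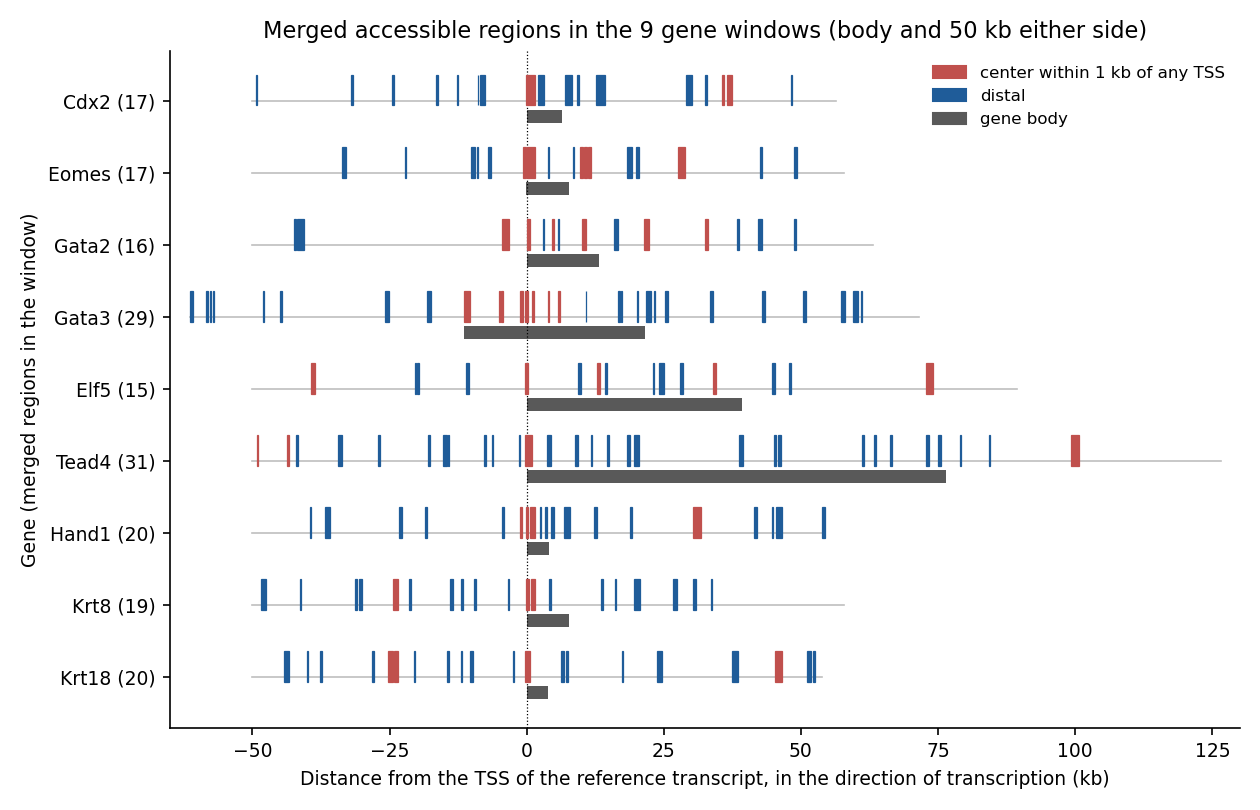
Position of every merged region in the 9 windows, in kb from the TSS of the reference transcript and in the direction of transcription. Bars are drawn to scale with a thin outline, red where the center lies within 1 kb of any annotated TSS and blue where it is distal, gray bars are gene bodies, and the number of regions stands beside each gene, from 15 at Elf5 to 31 at Tead4.

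The loci also differed in where their regions lay, with those at starts counted here as well. Within the body of Tead4 lay 17 of its 31 regions, among them 8 that touched no exon in intron 1, and the Gata3 body, counted from the start of Gata3-202, held 12 of 29. The small Krt18 gene was touched by 1 region and Cdx2 and Eomes by 2 each. These counts are not scaled to gene length. That length was 76.5 kb at Tead4 and 33.0 kb at Gata3, but 3.85, 6.47 and 7.92 kb at Krt18, Cdx2 and Eomes. Downstream of Cdx2 a series of 3 regions, 1125, 356 and 1642 bp wide, was centered 7.61, 9.35 and 13.5 kb from the TSS, and the last, chr5:147292928-147294569, was the widest distal region of all 9 loci. At Gata2 a pair of regions stood alone far upstream, 42.3 and 41.3 kb from the first TSS, the second of them 1372 bp wide (chr6:88151945-88153316), followed by 36.1 kb without a region, the longest such stretch of any of the loci. Downstream of Gata3 the list ran on to chr2:9817442-9817664, 61.0 kb from the TSS of Gata3-201, which at 56.1 kb was the region farthest from any annotated TSS. Between the TSSs of Krt8 and Krt18, which lie 23.7 kb apart and are transcribed away from each other, there were 5 regions, of 148 to 516 bp.

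Distal member regions had a median width of 378 bp (344 bp over all distal regions), and promoter-proximal ones 608 bp (757 bp). Their base composition differed somewhat from that of the list. The median GC content of the 168 regions was 52.3% (49.2% over all regions), and 13 of them (7.74%) had more than 50% of their bases in soft-masked repeats, against 16.8% of all regions. Most of these 13 lay in the Tead4 window, so the lower share does not hold at each locus. No member region was wider than 5 kb.

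**Figure D3:**
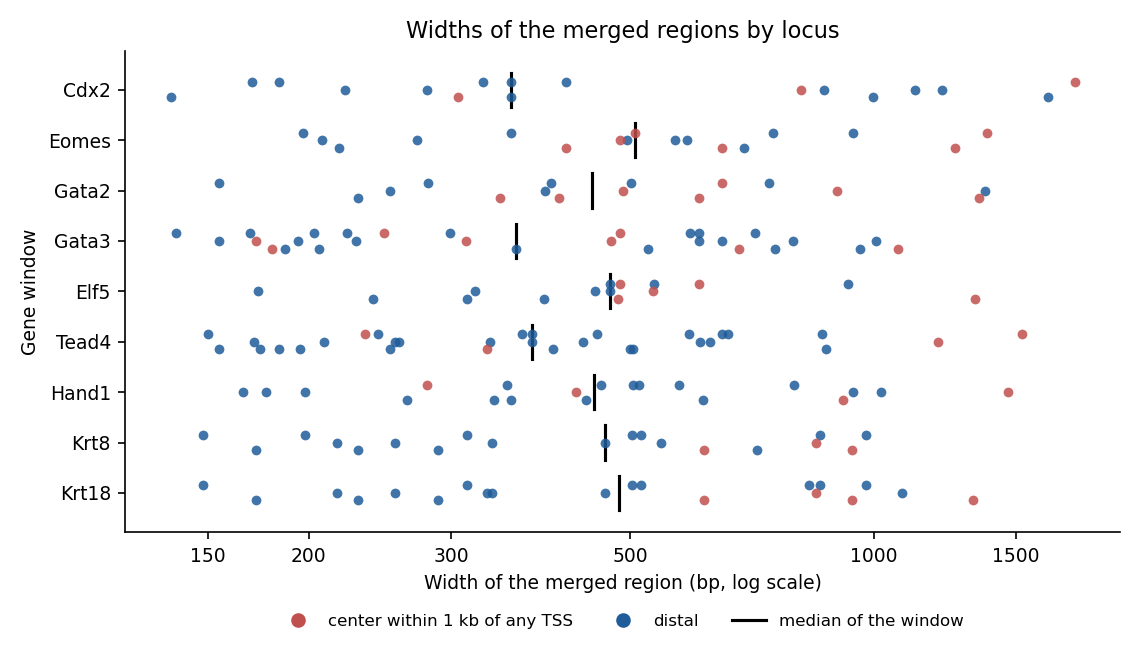
Width in bp, on a log scale, of each merged region by gene window, red where the center lies within 1 kb of any annotated TSS and blue where it is distal, with the median of the window as a black line. The widest point is the region at the Cdx2 start (1772 bp), and the window medians run from 356 bp at Cdx2 to 507 bp at Eomes.

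Short sequence elements of 9 transcription factor families were looked for in the middle 200 bp of every region, on either strand and with no mismatch. Of the 168 member regions, 143 were at least 200 bp wide. Where a region was narrower than the window searched, the window ran past its ends. A match counted there can lie outside the region. A match is a run of letters and not a bound site. Of the 168 member regions, 58 held at least 1 of the 9 elements (34.5%, against 41.3% of all regions), and 12 held 2 or more (7.14% against 8.48%). The octamer of POU factors such as OCT4, ATGCAAAT, was in 3 member regions (1.79%, 95% Wilson interval 0.609 to 5.12%), near its share of 2.01% in the whole list. The element CATTGT, which SOX factors such as SOX2 bind, was in 17 (10.1%, against 12.6%).

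The element of AP-2 factors, whose members TFAP2A and TFAP2C are trophoblast regulators, is GCCNNNGGC. It was the most frequent in the member regions, in 21 of 168 (12.5%, interval 8.32 to 18.4%), while over the list its share was 9.35% and that of the SOX element was the highest. In distal regions alone the AP-2 shares were 12.6% at the members (interval 7.91 to 19.5%) and 7.80% in the list. The distal member regions were also richer in GC, with a median of 51.1% against 48.3%, and the part of base composition in the AP-2 share was not tested. Over whole regions, the AP-2 element was in 42 member regions (25%, interval 19.1 to 32.1%) and in 18.8% of the list, where the median widths searched were 453.5 bp and 379 bp. In the central 200 bp, AP-2 matches were found in all 9 windows, as SOX matches were. They were in 5 of 31 regions of the Tead4 window, 4 of 20 at Hand1 and 3 of 17 at Cdx2, and the Krt8 and Krt18 windows shared a single one. Among protein-coding genes, 16 of the 21 regions were nearest to a member, as were 112 of all 168. The rest included regions nearest to Pdx1 in the Cdx2 window and to Tspan9 and Tulp3 in the Tead4 window.

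No element of basic helix-loop-helix factors such as HAND1 was searched. In the central 200 bp, the elements of other factor families that members encode had lower shares in the member regions than in the list. This is not particular to them, since every element searched except that of AP-2 had a lower share. The TEAD element, ACATTCC, was found in 5 regions (2.98%, against 4.51%). For the element of GATA factors, AGATAA, there were 13 regions (7.74%, against 9.01%). The ETS factors, to which ELF5 belongs, bind AGGAAGT, which was in 8 (4.76%, against 6.63%), and these lay in the windows of Gata3 (5), Cdx2 (2) and Gata2 (1). TCATAAA, bound by CDX factors, was in 2 (1.19%, against 2.22%). The T-box element, AGGTGTGA, was in 0 of 168, with a Wilson interval up to 2.24% (3 counts would be 1.79%), while 1.16% of all regions held it. GGGTGTGG, the element of KLF factors, some of which maintain ES cells, was in 4 (2.38%, against 3.54%). In the central 200 bp of the 168 regions, each of the 9 intervals held the share in the whole list, so no difference could be read there at this number of regions.

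**Figure D4:**
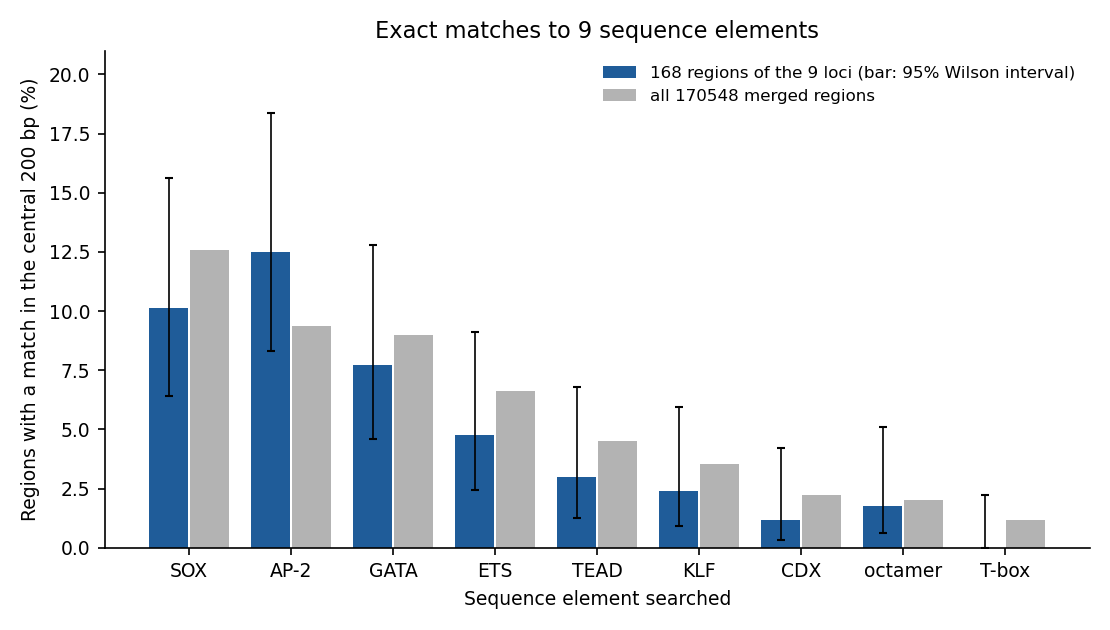
Share of regions (%) with an exact match to each of 9 sequence elements in the central 200 bp, for the 168 regions of the 9 loci (blue, with 95% Wilson intervals over regions) and for all 170548 merged regions (gray). AP-2 is the most frequent element at the 9 loci (12.5%) and SOX in the list (12.6%), and every blue interval reaches the gray bar beside it.

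OCT4 and SOX2 are known to bind together at a composite of the SOX element, 1 free base and the octamer, so that an octamer can lie within a composite match. With at most 2 mismatches over its 14 fixed letters, the composite was found in 1 member region (0.595%, against 0.571% of all regions). This region, chr6:128318441-128318775, lies 17.8 kb upstream of the Tead4 TSS in intergenic sequence, and its nearest protein-coding gene is Tulp3 and not Tead4. The other octamer regions are chr5:147338891-147339219, in an intron 31.8 kb upstream of the Cdx2 TSS, and chr15:102080402-102080733, in an intron 52.4 kb downstream of the Krt18 TSS. Among protein-coding genes, all 3 octamer regions were nearest to one that is not among the 9 (Tulp3, Urad and Eif4b). Of all 168 member regions, 112 were nearest to a member by this measure. Over whole regions the octamer was in 6 member regions (3.57%, against 3.72% of all regions) and the composite in 2 (1.19%, against 1.04%). The central 200 bp of the 3 regions are shown because they hold an exact octamer there, with the composite in capitals in the first and the octamer, which reads ATTTGCAT on the plus strand, in the others.
Tead4 window, 17.8 kb upstream: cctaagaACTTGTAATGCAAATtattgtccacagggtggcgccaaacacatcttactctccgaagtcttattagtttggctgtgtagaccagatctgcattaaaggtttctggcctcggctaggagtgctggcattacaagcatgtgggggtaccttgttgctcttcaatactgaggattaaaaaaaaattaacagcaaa
Cdx2 window, 31.8 kb upstream: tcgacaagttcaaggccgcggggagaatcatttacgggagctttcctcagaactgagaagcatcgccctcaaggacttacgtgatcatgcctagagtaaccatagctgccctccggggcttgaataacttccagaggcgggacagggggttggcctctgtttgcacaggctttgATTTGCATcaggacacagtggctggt
Krt18 window, 52.4 kb downstream: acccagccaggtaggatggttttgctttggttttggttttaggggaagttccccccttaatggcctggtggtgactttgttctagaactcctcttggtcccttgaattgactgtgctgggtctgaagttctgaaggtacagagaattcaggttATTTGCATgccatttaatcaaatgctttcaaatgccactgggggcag

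Other stretches are shown for the elements they combine, and the next 3 were chosen after their matches were seen. A region of 608 bp past the 3′ end of Gata3, chr2:9852827-9853434, 25.5 kb from the TSS of Gata3-201, held SOX, AP-2, TEAD and ETS elements within its central 200 bp. It was the only member region with 4 of the 9 elements, and 0.108% of all regions had at least as many. A region of 240 bp in intron 2 of Elf5, chr2:103434697-103434936, held a CDX element, 1 of 2 found in the central 200 bp of the member regions (7 over whole regions), and an AP-2 element. The region of 428 bp just upstream of Hand1, chr11:57833577-57834004, held a pair of AP-2 elements. So did the region at the Cdx2 start and a region 42.7 kb downstream of the first Gata2 TSS. The shares of all regions with such a pair, or with CDX and AP-2 elements together, were not computed. In these sequences, which are the central 200 bp on the plus strand, every match is in capitals.
Gata3, 25.5 kb downstream: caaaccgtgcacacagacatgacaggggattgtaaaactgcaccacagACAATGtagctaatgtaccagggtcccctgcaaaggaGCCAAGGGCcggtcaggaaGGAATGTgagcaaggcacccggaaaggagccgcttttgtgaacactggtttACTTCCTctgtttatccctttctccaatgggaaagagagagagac
Elf5, intron 2: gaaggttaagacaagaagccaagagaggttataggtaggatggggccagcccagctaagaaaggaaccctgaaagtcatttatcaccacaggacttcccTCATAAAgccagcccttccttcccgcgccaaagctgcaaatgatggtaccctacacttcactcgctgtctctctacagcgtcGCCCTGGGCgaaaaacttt
Hand1, 0.972 kb upstream: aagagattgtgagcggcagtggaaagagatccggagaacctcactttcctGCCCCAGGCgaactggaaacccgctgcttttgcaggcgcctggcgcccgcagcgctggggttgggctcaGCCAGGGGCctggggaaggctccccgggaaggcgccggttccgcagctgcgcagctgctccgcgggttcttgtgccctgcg

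The widest distal regions, at Cdx2 and Gata2, are shown by their central 200 bp, a small part of their width. The central 200 bp of the 1642 bp region downstream of Cdx2 held none, and those of the 1372 bp region upstream of Gata2 held 1 SOX element (capitals). Of the 7 distal member regions wider than 1 kb, 5 held at least 1 of the elements there. The same share over all distal regions wider than 1 kb was not computed, so nothing can be read from this count.
Cdx2, 13.5 kb downstream: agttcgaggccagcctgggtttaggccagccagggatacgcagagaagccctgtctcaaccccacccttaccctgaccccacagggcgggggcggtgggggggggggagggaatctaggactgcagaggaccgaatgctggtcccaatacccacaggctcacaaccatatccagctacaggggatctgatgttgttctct
Gata2, 41.3 kb upstream: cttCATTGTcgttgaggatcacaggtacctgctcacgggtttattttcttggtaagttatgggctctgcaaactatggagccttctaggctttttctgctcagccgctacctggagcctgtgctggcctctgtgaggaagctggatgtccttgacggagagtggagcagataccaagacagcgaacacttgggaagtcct

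Other gene groups give these values a scale. Another 12 trophectoderm and TS cell genes, among them Tfap2a and Tfap2c, Ets2, Ascl2 and the FGF receptor gene Fgfr2, all had a region within 1 kb of a TSS, with a median density at percentile 84.5 (members 85.3). Dlx3 was the densest of them (percentile 99.3), Fgfr2 the least dense (42.6), and Krt19 the one without a region over a TSS. The Fgfr2 window held 273 regions, against a list median of 19, so its density is a mean over a far longer stretch. The 10 Hippo pathway genes, which encode YAP, TAZ, the other TEAD factors and the kinases and scaffolds upstream of them, likewise all had one, with a median at percentile 75.4, from Amot (18.2) to Yap1 (93.4).

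Of 9 genes of differentiated trophoblast, in contrast, 2 had a region within 1 kb of a TSS, Plac1 and the syncytin gene Syna, and 0 had one over a TSS. The median density of this list was at percentile 15.9. Psg23, a pregnancy-specific glycoprotein gene, had no region in its window, and the giant cell gene Prl3d1 and the syncytin gene Synb had 1 each. The syncytiotrophoblast regulator Gcm1 had 20 regions in its window and none at its start, and Syna was the densest (percentile 94.0). The starts of this list were poor in CpG, with a median observed to expected ratio of 0.178 against 0.546 for the members, and the part of CpG content in its low count was not tested. Several of these genes belong to families of near-identical copies, in which reads can be hard to place.

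The 9 primitive endoderm regulators, the other extraembryonic program, all had a region within 1 kb of a TSS but a median density at percentile 39.8, from Sox7 (19.4) to Hnf4a (80.2). The 9 naive pluripotency genes, which are active in ES cells, were the densest list, with a median at percentile 95.6, from Klf4 (45.6) to Nanog (99.6). The members lay between these lists. All lists were small and selected by known function, and no test was run on them.

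**Figure D5:**
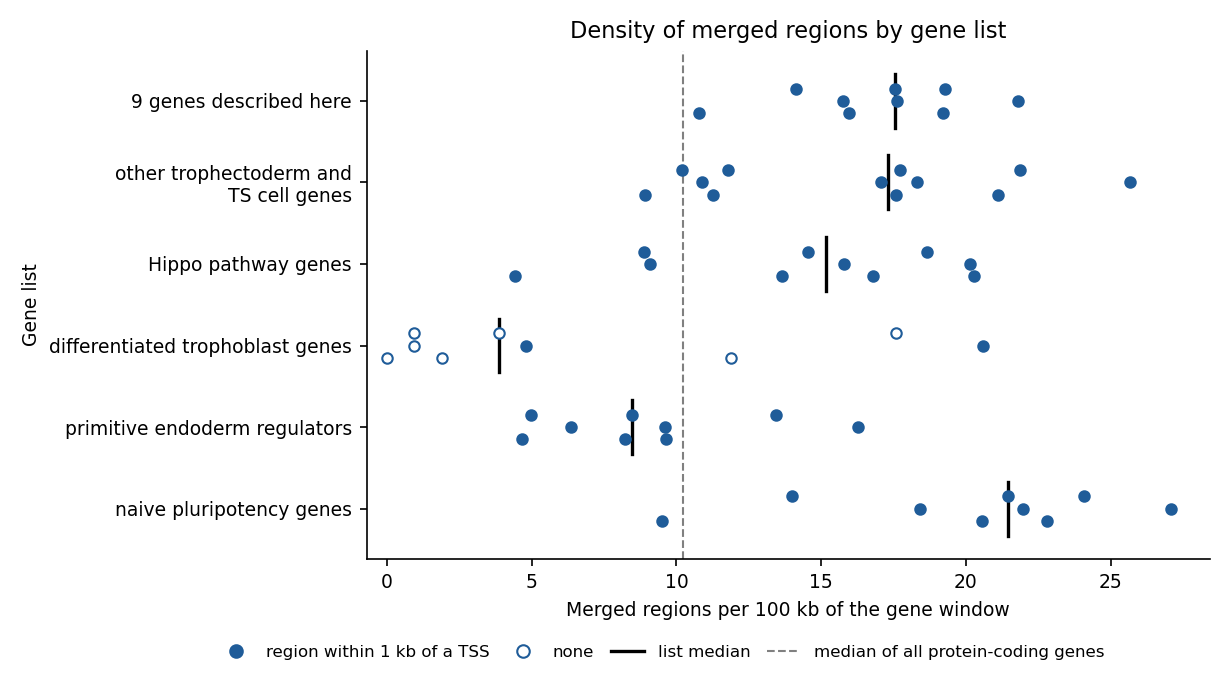
Merged regions per 100 kb of the window (gene body and 50 kb either side) for each gene of 6 lists. Filled points have a region within 1 kb of a TSS and open points have none, black lines are list medians and the dashed line is the median of all protein-coding genes (10.2); the members lie between 10.8 and 21.8, and 7 of the 9 differentiated trophoblast genes are open points.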

How the data were processed

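The deposited values are the positions in bp of merged ATAC-seq peaks. Per the labels and the methods, the authors aligned reads to mm10 with STAR (2.6.1c), removed duplicates with Picard, called peaks on paired-end fragments with MACS2 (2.1.1.20160309) and merged the peaks of both lines with BEDTools. The methods do not name whether a published serum and LIF dataset entered the merge. The width, Input and blacklist filters of the methods come after the merge, and regions over 5 kb are still in the list.

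From these positions, overlaps with GENCODE M21 windows, distances from region centers to TSSs, CpG ratios within 500 bp of gene 5′ ends, percentiles (ties averaged) and motif matches were computed and read against all regions or all protein-coding genes, without tests. All 9 genes were described throughout. Regions were named when they lay at a TSS, were widest, widest distal or farthest from a TSS, or held a composite match or octamer. Other regions, such as those downstream of Cdx2, between Krt8 and Krt18, in Elf5 intron 2, downstream of Gata3 and upstream of Hand1, were chosen after their values were seen. List genes were named when they lacked a TSS region or had the highest or lowest density. The genes, lists and rules were chosen with earlier results of these data known. Functions were tested on simulated data. Python 3.11.15, NumPy 2.4.6, pandas 2.3.3, SciPy 1.17.1 and matplotlib 3.10.9 were used.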

Additional observations from a re-analysis of the deposited data

How the results depend on the processing

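Of 25 alternative settings over 7 results, 17 left the value within the limits set for it (1.5 times a count, the Wilson interval of a share, 10 points of a percentile) and 8 moved it. The distal share, 75.6% as reported, was 83.3% with a limit of 500 bp, 82.7% when noncoding genes were left out of the TSS set and 86.9% with the TSSs of curated RefSeq transcripts, the last chosen after seeing the data. These changed values have no matching share over all merged regions. The share of 82.7% over all merged regions was taken with the reported limit and TSS set. Of the 168 regions, 112 were nearest to a member among protein-coding genes and 73 among all annotated genes, since noncoding genes lie in the same windows. The number of regions with an element, 58 in the central 200 bp, was 94 in the central 400 bp (56.0%, against 62.7% of all regions) and 103 over whole regions (61.3% against 62.1%), which search more bases. The composite match was in 1 region as reported, in 0 with at most 1 mismatch (0.0504% of all regions) and in 3 with at most 3 (1.79%, against 3.40% of all regions). The rule that a region cover the reference TSS, which 7 of 9 genes met, was also chosen after seeing the data. The number of regions ran from 115 with a flank of 20 kb to 243 with 100 kb, and the median density percentile from 75.3 to 92.0. No paired analysis was possible because replicates were merged before deposit, and for the same reason no replicate was left out in turn. Without heights, every region counts alike whatever its signal.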
